A study of Sus scrofa with 12 samples.

Results

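The genes examined here, 10 in all, coat lipid droplets or break down the triglyceride inside them, and were measured by RNA sequencing in muscle of Italian Large White pigs: PLIN1, PLIN2, PLIN3, PLIN4, PLIN5, CIDEC, PNPLA2, ABHD5, LIPE and MGLL. They were picked by symbol, and PLIN1 and CIDEC were treated as adipocyte-type and PLIN2 to PLIN5 as muscle-type droplet genes. Of 25880 genes in the count table, these 10 were each found once, and all 10 were among the 14262 genes abundant enough to be tested. The material was Semimembranosus, a hind-leg muscle used for ham, from 12 unrelated purebred pigs, 6 with high and 6 with low intramuscular fat (IMF). Each group was labelled as 3 gilts and 3 barrows, which are castrated males. The high IMF pigs were 234 to 244 days old and the low IMF pigs 229 to 249 days. All shared the environment and the diet and came from a heavy, station-tested population. No treatment or genetic change separated the groups, which were formed on the fat content of this same muscle.

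A lipid droplet is a core of triglyceride inside a coat of perilipins, and the perilipins decide how far lipases reach that core. PLIN1 and the fat-specific droplet protein CIDEC are best known from adipocytes, PLIN2 and PLIN3 coat droplets in most cells, PLIN5 is typical of oxidative tissues and PLIN4 is abundant in fat and in striated muscle. Triglyceride is then taken apart in turn by PNPLA2 (adipose triglyceride lipase) with its activator ABHD5, by LIPE (hormone-sensitive lipase) and by MGLL (monoglyceride lipase). Intramuscular fat lies in adipocytes between the fibres and in droplets within them. In bulk muscle RNA, fewer cells of a type and less RNA per cell cannot be told apart.

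Libraries held between 131048805 and 178013997 counts. The tissue label was borne out by the skeletal muscle markers, of which 6 of 10 were named in the table: ACTA1 (skeletal actin) and NEB (nebulin) led with means of 19667 and 20529 CPM (counts scaled to a common library total), and the summed markers ran from 52958 to 83998 CPM. Sex labels fared less well. Of 10 Y chromosome genes looked for, 3 were named, and their summed counts were at most 6 in some pigs and at least 3734 in the rest, which went against the labelled sex in 6 of 12 pigs (pigs 3 and 5 of the high IMF group, pigs 7, 8, 9 and 10 of the low IMF group). The Y counts were high in pigs 3, 4 and 6 (high IMF) and in pigs 9, 10 and 11 (low IMF). Within either group, pigs with high Y counts were thus as many as the labelled barrows, although not all the same animals. Whether the group and age labels are right cannot be read from the table, for the 6 mismatched pigs or for the 6 others. A sex label can match by chance, so the 6 others are not a checked set. Values without the mismatched 6 (the pigs of doubtful sex label) are given for each of the 10 genes and for G0S2. They show how results change and do not settle the doubt. For the gene lists they are given as counts.

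The starting regions of 4 members, picked after the results were seen, are shown: PLIN1 and CIDEC varied together over the pigs, PLIN2 had the smallest p of the 10, and ABHD5 alone of the 10 carried a PPAR direct repeat. No test of levels used these regions. Each is the 250 bases before the RefSeq gene start on the gene's own strand, 5′ to 3′, on Sscrofa11.1. For PLIN1 the RefSeq model is 1 transcript of 1575 exon bases, 1548 of them coding. Its start may therefore not be where transcription begins. Capitals mark motif matches on either strand. PLIN1 lies on the minus strand with its upstream stretch at chr7:55250798-55251047, CIDEC on the minus strand at chr13:66149802-66150051, PLIN2 on the plus strand at chr1:203683617-203683866, and ABHD5 on the plus strand at chr13:27006081-27006330.
PLIN1: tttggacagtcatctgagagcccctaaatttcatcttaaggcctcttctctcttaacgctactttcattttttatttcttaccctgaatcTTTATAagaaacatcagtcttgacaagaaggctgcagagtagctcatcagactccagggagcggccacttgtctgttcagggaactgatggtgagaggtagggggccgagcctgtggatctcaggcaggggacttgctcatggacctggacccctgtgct
CIDEC: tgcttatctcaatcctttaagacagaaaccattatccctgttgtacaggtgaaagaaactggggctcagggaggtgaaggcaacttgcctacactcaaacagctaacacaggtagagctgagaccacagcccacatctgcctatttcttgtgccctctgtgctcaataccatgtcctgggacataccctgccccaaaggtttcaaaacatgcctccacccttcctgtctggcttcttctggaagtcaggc
PLIN2: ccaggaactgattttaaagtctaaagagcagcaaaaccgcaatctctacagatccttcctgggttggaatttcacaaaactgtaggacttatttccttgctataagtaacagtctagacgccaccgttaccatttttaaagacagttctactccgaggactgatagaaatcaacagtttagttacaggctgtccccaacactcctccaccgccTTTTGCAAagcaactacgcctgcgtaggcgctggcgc
ABHD5: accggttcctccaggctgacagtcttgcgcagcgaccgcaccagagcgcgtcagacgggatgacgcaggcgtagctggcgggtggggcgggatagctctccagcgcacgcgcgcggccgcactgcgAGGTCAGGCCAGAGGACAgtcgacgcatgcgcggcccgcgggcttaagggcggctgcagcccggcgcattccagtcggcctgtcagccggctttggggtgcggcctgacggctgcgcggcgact

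Motifs were searched in windows that ran from 250 bases before to 50 bases after the start, in the members and in 19556 protein-coding genes. The PPAR direct repeat, a pair of AGGNCA sites with 1 base between them, occurred in 0.271% of all windows and in 1 member, ABHD5, where it began 119 bases before the start. A single nuclear receptor site, AGGTCA, which 14.1% of windows hold, began 124 bases before the start of ABHD5 and overlapped it. The C/EBP core TTGCNNAA, found in 9.46% of windows, was in PLIN2 on the opposite strand, from 37 bases before the start. TATAAA (10.9% of windows) was in PLIN1, on the opposite strand, and in PLIN3. CACGTG (7.92%) was in PLIN4 and MGLL, and CCAAT (35.4%) was in PLIN3, PLIN5, PNPLA2 and LIPE. CIDEC held none of the 6. These are letter matches in a fixed window and no measure of binding.

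The 10 genes spread over 5 chromosomes. PLIN5 (chr2:74304613-74314314) and PLIN4 (chr2:74318624-74331920) were neighbours on the plus strand, with 4309 bases between them, and PLIN3 (chr2:73970149-73995314) lay 309298 bases before PLIN5. PNPLA2 was on the same chromosome at chr2:513065-517962. The others were PLIN1 at chr7:55237517-55250797, CIDEC at chr13:66141836-66149801, PLIN2 at chr1:203683867-203709277, ABHD5 at chr13:27006331-27053760, LIPE at chr6:49543671-49560126 and MGLL at chr13:72480395-72568964. MGLL shared 835 exon bases with ABTB1 on the other strand and CIDEC shared 159 with an uncharacterized gene, and since the strand setting of the counting was not given in the sources used here, those counts are less certain.

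Levels were first ordered within the muscle, as CPM per kilobase of exon so that genes of different length could be set side by side. Counts followed Ensembl gene models and lengths followed RefSeq, so a gene whose models differ can be misplaced. RefSeq exons held 1575 bases for PLIN1 and 1326 for ABHD5, with longest coding sequences of 1548 and 1047. For MGLL these were 4151 and 942 bases. PLIN4 was the most abundant member at 38.9 ± 10.3 (SD, n = 12), followed by PLIN2 at 26.9 ± 14.2 and ABHD5 at 21.1 ± 13.8. MGLL (10.1 ± 1.60) and PNPLA2 (7.01 ± 1.92) were intermediate. The adipocyte-type genes were far lower, PLIN1 at 2.81 ± 1.80 and CIDEC at 2.09 ± 1.41, close to LIPE at 1.53 ± 0.932 and above PLIN3 at 1.00 ± 0.126 and PLIN5 at 0.563 ± 0.270. Within pigs the order held in 12 of 12 for PNPLA2 over PLIN1 and in 11 of 12 for ABHD5 over MGLL, PLIN1 over CIDEC and PLIN3 over PLIN5. It held in 10 of 12 for PLIN4 over PLIN2 and for MGLL over PNPLA2, and in 9 of 12 for PLIN2 over ABHD5. It held in only 7 of 12 pigs for CIDEC over LIPE and 8 of 12 for LIPE over PLIN3, so those neighbours did not differ beyond the spread between pigs. With the longest coding sequence as the length, an alternative chosen after seeing the data, MGLL (44.6 CPM per kilobase) passed ABHD5 (26.7) and CIDEC (4.24) passed PLIN1 (2.86).

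On this per-length scale, with the same limit on lengths, PLIN4 and PLIN2 together made up most of the perilipin RNA. PLIN4 supplied 51.0 ± 10.8% of the perilipin total in high and 61.2 ± 9.60% in low IMF pigs (SD, n = 6 each). PLIN2 supplied 43.4 ± 10.9% and 32.0 ± 10.6%. The 2 ends were pig 6 of the high IMF group, with 63.8% PLIN2 and 31.5% PLIN4, and pig 8 of the low IMF group, with 20.7% PLIN2 and 70.1% PLIN4. Pig 10 of the low IMF group broke the pattern of its group, with 51.6% PLIN2 and 42.8% PLIN4. PLIN1 stayed between 1.47% and 7.99% in all pigs, PLIN3 between 1.01% and 2.63%, and PLIN5 between 0.377% and 1.38%.

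**Figure D1:**
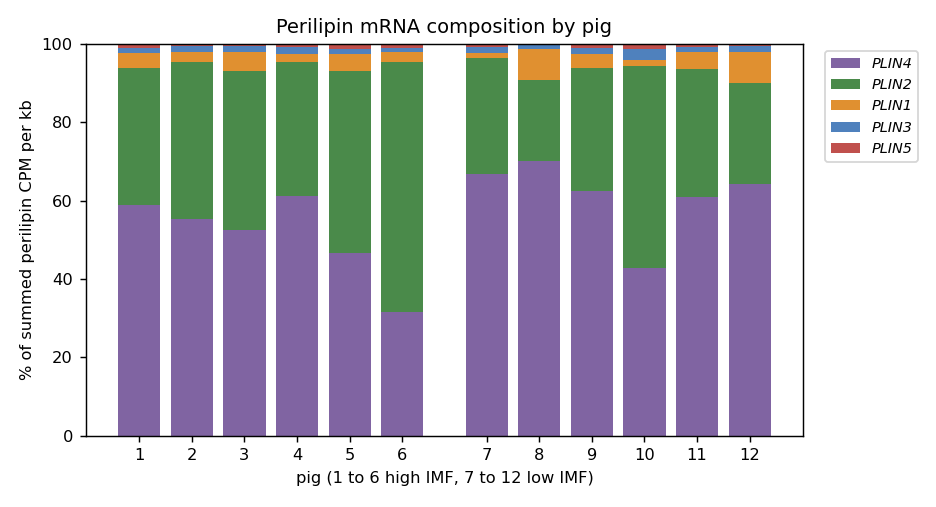
Share of each perilipin in the summed perilipin CPM per kilobase of exon (percent, y axis) in each pig (x axis, pigs 1 to 6 high IMF, 7 to 12 low IMF), 1 stacked bar per pig. PLIN4 and PLIN2 fill most of every bar, and PLIN2 takes 63.8% in pig 6 against 20.7% in pig 8.

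The main question was whether droplet genes differed between high and low IMF muscle. With edgeR's quasi-likelihood test, a gene was called at an adjusted p of at most 0.05 with a log2 fold change of 0.58 or more in either direction (log2FC, positive where the low IMF pigs were higher). None of the 10 members was called (adjusted p from 0.420 to 0.966), and none of the 14262 genes was (0%, smallest adjusted p 0.190). At an unadjusted p of at most 0.05 there was 1 member of 10, PLIN2, beside 10.4% of all genes. DESeq2's Wald test called 64 genes (0.458% of those it adjusted), none of them a member. The groups of no member were free of overlap, beside 0.659% of all genes. The fitted level was higher in high IMF pigs for 4 members (PLIN2, PLIN3, PLIN5 and ABHD5), beside 51.6% of all genes, and 6 in low IMF pigs. The median log2FC of the members was 0.09, beside -0.01 over all genes tested.

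**Figure D2:**
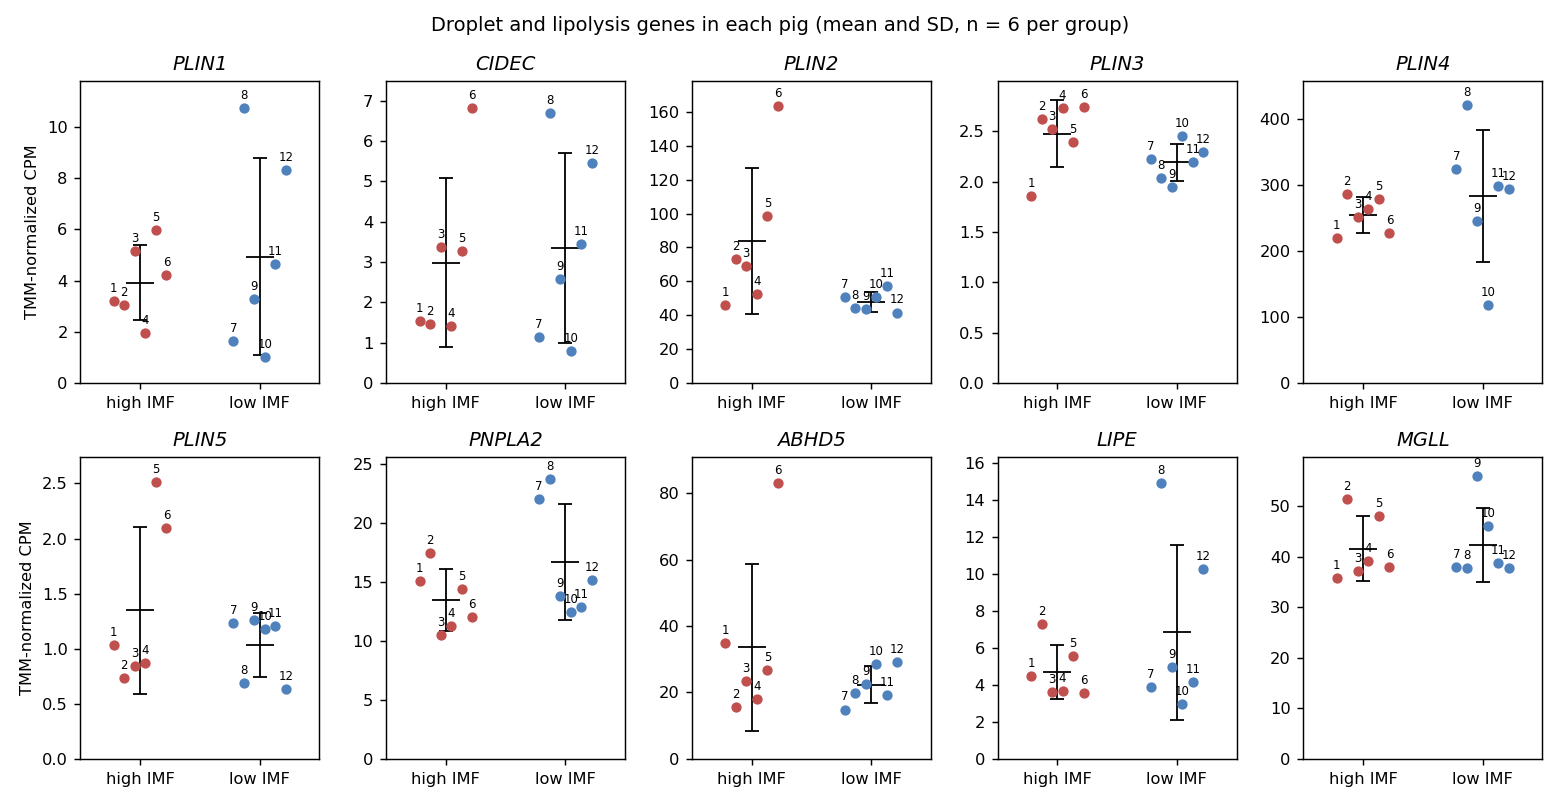
TMM-normalized CPM (y axes, each from 0) of the 10 genes in every pig, with pig numbers beside the points and the mean and SD of each group (n = 6). The 4 highest PLIN2 values, 69.4 to 163 CPM, are all high IMF pigs, whereas the highest and the lowest PLIN1 value are both low IMF pigs.

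PLIN1 coats the large droplets of adipocytes and holds ABHD5 back until the fat cell is stimulated. Its level in high IMF pigs ran from 1.97 CPM (pig 4) through a median of 3.70 to 5.96 CPM (pig 5). In low IMF pigs it ran from 1.00 CPM (pig 10) through a median of 3.97 to 10.7 CPM (pig 8). The low IMF group thus held the lowest and the 2 highest pigs, and the high IMF pigs lay within its range. Group means were 3.92 ± 1.47 and 4.94 ± 3.85 CPM (SD, n = 6 each), a log2FC of 0.33 ± 0.49 (SE, 95% interval -0.71 to 1.38, adjusted p = 0.846, edgeR). An exact permutation test of the 12 pigs gave p = 0.972. The direction turned without pig 8 (log2FC -0.04) and with labelled age in the model (-0.02). Without the 6 pigs of doubtful sex label the log2FC was 1.07 (unadjusted p = 0.0149, adjusted p = 0.998, edgeR).

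CIDEC fuses droplets into the single large one of a white adipocyte. High IMF pigs lay between 1.42 CPM (pig 4) and 6.83 CPM (pig 6), with a median of 2.41, and low IMF pigs between 0.796 CPM (pig 10) and 6.70 CPM (pig 8), with a median of 3.01. Both groups covered almost the same range. The log2FC was 0.17 ± 0.53 (SE, 95% interval -0.96 to 1.30, adjusted p = 0.939, edgeR). It was -0.14 without pig 8, -0.01 without pig 12, 0.60 without pig 6 and 0.67 without the pigs of doubtful sex label. Both adipocyte-type genes therefore differed between groups by less than the spread between pigs, with intervals that reach past 0.58 in both directions.

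PLIN2 is the widespread perilipin of growing droplets, made in muscle fibres, macrophages and immature fat cells. It was 46.2, 73.3, 69.4, 52.5, 98.4 and 163 CPM in high IMF pigs 1 to 6 and 51.0, 44.2, 43.6, 50.8, 57.3 and 41.7 CPM in low IMF pigs 7 to 12. Of the high IMF pigs, 4 were above every low IMF pig, pig 4 was within the low IMF range below pig 11, and pig 1 was below 3 low IMF pigs. The low IMF pigs lay close together. Means were 83.9 ± 43.1 and 48.1 ± 5.96 CPM (SD, n = 6 each), a fitted level 1.74-fold higher in high IMF muscle. The log2FC was -0.80 ± 0.26 (SE, 95% interval -1.36 to -0.25), with an unadjusted p of 0.00782 and an adjusted p of 0.420 (edgeR), so the difference did not pass over all genes. The exact permutation p was 0.0216, or 0.433 adjusted over all genes, and 95.8% of genes had a smaller log2FC in size.

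The PLIN2 difference was smaller without pig 6 (log2FC -0.50, unadjusted p = 0.0136, adjusted p = 0.635, edgeR) and reached -0.93 without pig 1. The direction was the same in all 23 alternatives tried, and the unadjusted p was at most 0.05 in 22 of them. The exception was the set without the pigs of doubtful sex label, where 4 high and 2 low IMF pigs were left (log2FC -0.75, unadjusted p = 0.189, edgeR). DESeq2's Wald test on the same genes gave an adjusted p of 0.119.

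PLIN3, which moves between the cytosol and new droplets, was low and even: high IMF pigs ran from 1.86 to 2.74 CPM and low IMF pigs from 1.95 to 2.45 CPM. In 4 high IMF pigs it was above all low IMF pigs, while pig 1 was the lowest of the 12. Its log2FC of -0.18 ± 0.13 (SE) had the interval -0.45 to 0.09 and an adjusted p of 0.650 (edgeR), and was -0.14 without the pigs of doubtful sex label.

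PLIN4 forms long amphipathic helices on droplets. High IMF pigs lay between 219 and 286 CPM with a median of 257, and low IMF pigs between 119 CPM (pig 10) and 420 CPM (pig 8) with a median of 296. Of the low IMF pigs, 4 were above every high IMF pig, and pig 10 was far below all. The log2FC was 0.16 ± 0.22 (SE, 95% interval -0.32 to 0.63, adjusted p = 0.839, edgeR). It was 0.32 without pig 10 (unadjusted p = 0.0365, adjusted p = 0.484) 0.02 without pig 8 and 0.26 without the pigs of doubtful sex label.

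PLIN5 ties droplets to mitochondria in muscle and heart. High IMF pigs had 1.04, 0.732, 0.841, 0.874, 2.52 and 2.09 CPM and low IMF pigs 1.24, 0.693, 1.26, 1.18, 1.21 and 0.633 CPM. Only pigs 5 and 6 stood above the low IMF pigs, and the high IMF median of 0.954 CPM was under the low IMF median of 1.19 CPM although its mean was higher. The log2FC was -0.38 ± 0.33 (SE, 95% interval -1.10 to 0.34, adjusted p = 0.721, edgeR), and it was -0.11 without pig 5, -0.21 without pig 6 and -0.35 without the pigs of doubtful sex label. The mean and the median thus pointed in opposite directions for this gene. Raw counts of PLIN5 were 104 to 320 per pig, the fewest of the 10.

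**Figure D3:**
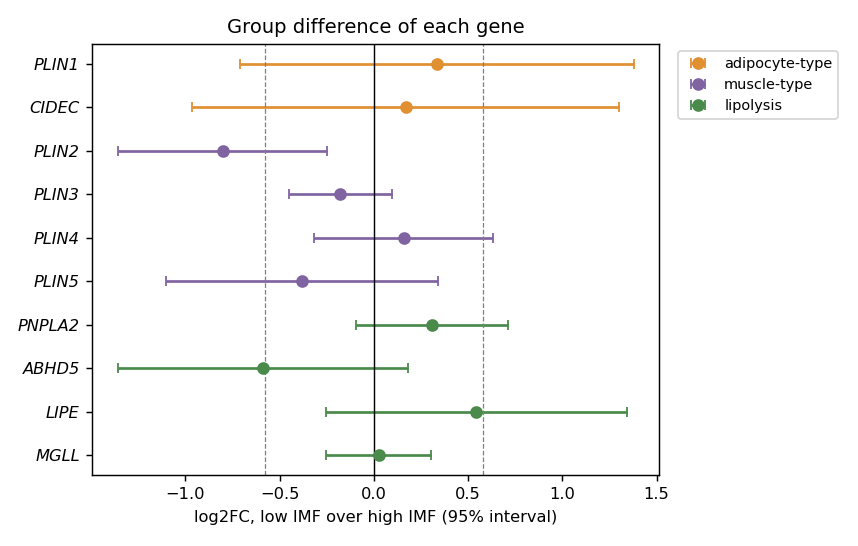
Log2FC, low over high IMF, of each gene (points) with its 95% interval from edgeR (bars), coloured by class, with dashed lines at 0.58 in either direction. Of the 10 intervals, that of PLIN2 (-1.36 to -0.25) leaves out 0, before any adjustment over genes.

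PNPLA2 makes the first cut in a triglyceride. It ran from 10.5 to 17.5 CPM in high IMF pigs and from 12.4 to 23.8 CPM in low IMF pigs, and pigs 7 and 8 of the low IMF group stood above all others. Its log2FC was 0.31 ± 0.19 (SE, 95% interval -0.10 to 0.71, adjusted p = 0.591, edgeR). Without the pigs of doubtful sex label, which include both of these, the log2FC was 0.01.

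ABHD5 switches PNPLA2 on. It was 35.0, 15.7, 23.5, 18.0, 26.6 and 82.9 CPM in high IMF pigs 1 to 6, and low IMF pigs ran from 14.9 to 29.0 CPM. Pig 6 carried the group mean, with pig 1 the only other one above the low IMF pigs. The log2FC of -0.59 ± 0.36 (SE, 95% interval -1.36 to 0.18, adjusted p = 0.589, edgeR) was -0.09 without pig 6 and -0.64 without the pigs of doubtful sex label.

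LIPE, the diglyceride lipase controlled by catecholamines and insulin, had medians of 4.09 CPM in high and 4.57 CPM in low IMF pigs. Pigs 8 (14.9 CPM) and 12 (10.3 CPM) of the low IMF group were the highest, as they were for PLIN1, and the other 10 pigs lay between 2.94 and 7.27 CPM. The log2FC was 0.54 ± 0.37 (SE, 95% interval -0.25 to 1.34, adjusted p = 0.630, edgeR), 0.17 without pig 8 and 0.61 without the pigs of doubtful sex label. MGLL, which frees the last fatty acid, was the steadiest of the lipases, from 35.8 to 51.4 CPM in high and from 37.7 to 55.9 CPM in low IMF pigs. Its log2FC was 0.03 ± 0.13 (SE, 95% interval -0.25 to 0.30, adjusted p = 0.966, edgeR), and it took either sign among the alternatives, between -0.09 and 0.09.

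How the 10 genes varied among themselves was read from 45 pairs over the 12 pigs, on log2 CPM, with permutation tests and adjustment over the pairs. The adipocyte-type pair stood out. PLIN1 and CIDEC were correlated at Pearson's r = 0.899 (permutation p = 5e-05, adjusted p = 0.00225) and Spearman's rho = 0.867 (permutation p = 0.00056, adjusted p = 0.0252). The relation held without pigs 8 and 10, the farthest from the median of PLIN1 (r = 0.826), after centring each group on its mean (r = 0.900) and when each pig was left out (r from 0.862 to 0.969). Within the groups r was 0.699 in high and 0.997 in low IMF pigs, as a description of 6 pigs each.

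No other pair passed, and 24 of the 45 correlations were positive. PLIN1 and PLIN5, 1 gene of each class, had r = -0.156 (permutation p = 0.628, adjusted p = 0.835) and rho = -0.231, with r = 0.599 among high and -0.774 among low IMF pigs and 0.0440 without pigs 8 and 10. The 7 other pairs with an unadjusted p of at most 0.05, which are named because they met it, had adjusted p-values from 0.121 to 0.275. Without the 2 pigs farthest from the median of the first gene, r went from 0.656 to 0.764 for PNPLA2 with LIPE, from 0.625 to 0.643 for PLIN2 with PLIN3, from 0.584 to 0.547 for PLIN4 with PNPLA2 and from 0.739 to 0.515 for PLIN1 with LIPE. It went from 0.665 to 0.326 for PLIN4 with LIPE. The relations of PLIN1 with PLIN4 (r = 0.667, -0.08 without pigs 8 and 10) and of PLIN2 with PLIN5 (r = 0.668, -0.07 without pigs 5 and 6) rested on those pigs.

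**Figure D4:**
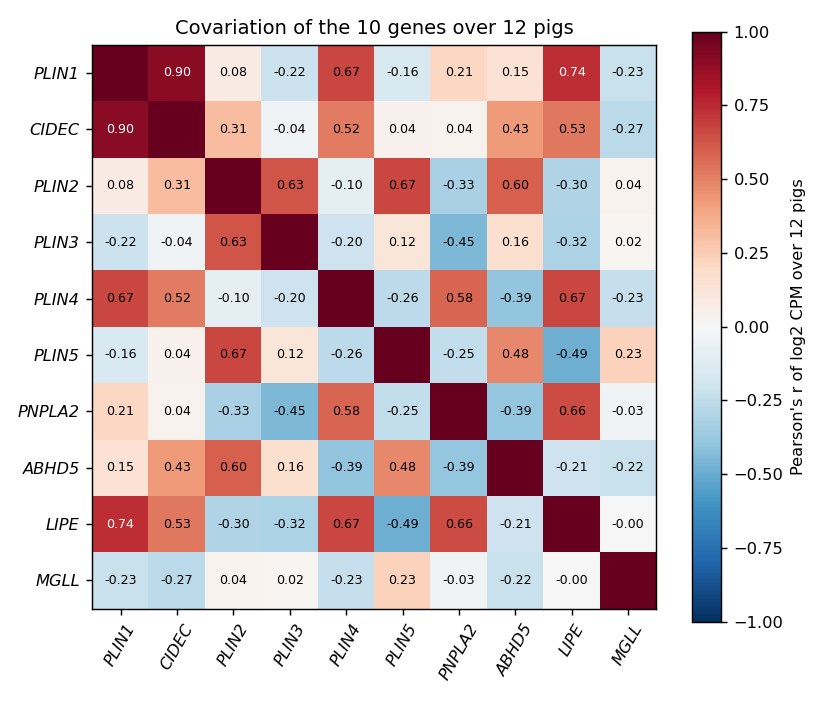
Pearson's r of log2 CPM over 12 pigs for each pair of the 10 genes (colour scale from -1 to 1, r written in each cell). PLIN1 and CIDEC have the highest value, 0.899, and PLIN2 has its own highest value with PLIN5, 0.668.

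Adipocyte content was read from a list of 16 adipocyte markers, of which 15 were named and 14 tested. None had an unadjusted p of at most 0.05 (beside 10.4% of all genes), 5 were higher in high and 9 in low IMF pigs, and their median log2FC was 0.07. ADIPOQ, the adiponectin gene, was present in all pigs, from 19.9 to 78.3 CPM in high and from 8.40 to 76.9 CPM in low IMF pigs (log2FC -0.15 ± 0.54, SE, adjusted p = 0.950, edgeR). GPD1 was the most abundant of the list (mean 908 CPM, log2FC 0.01). The smallest p-values of the list belonged to PPARG, the adipogenic nuclear receptor (log2FC -0.31, adjusted p = 0.746), TRARG1, a regulator of glucose transporter traffic (0.51, adjusted p = 0.771), and RBP4, the retinol carrier (0.41, adjusted p = 0.792). Of the defining markers, FABP4 (9.35 to 37.1 CPM) and CFD (13.9 to 28.2 CPM) were present in every pig and LEP was near 0 (0 to 0.960 CPM). RETN was at or near 0 in every pig.

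The summed list was dominated by GPD1, a glycerol phosphate dehydrogenase that muscle fibres also make, which supplied 82.3% to 95.9% of the sum, and with it the correlation was -0.256 for PLIN1 and -0.228 for CIDEC. Leaving GPD1 out was chosen after seeing the data. The sum of the other 14 markers then ran from 61.8 to 143 CPM in high and from 38.7 to 153 CPM in low IMF pigs, with pigs 8 and 12 highest (153 and 150 CPM) and pig 10 lowest, all 3 of the low IMF group. PLIN1 followed it at r = 0.939 (permutation p = 1e-05, the smallest that 100000 resamples can give, adjusted p = 5e-05) and rho = 0.951, and r = 0.902 without pigs 8 and 10. CIDEC followed it at r = 0.960 (permutation p = 1e-05, adjusted p = 5e-05) and rho = 0.944, and r = 0.940 without pigs 8 and 10. The most abundant genes in that sum were ADIPOQ (mean 43.1 CPM), FABP4 (20.9 CPM) and CFD (19.0 CPM). THRSP came next at 4.71 CPM, so the sum and these correlations weigh ADIPOQ, FABP4 and CFD most.

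None of the muscle-type genes passed the same test. PLIN2 had r = 0.351 (permutation p = 0.274, adjusted p = 0.513) and rho = 0.02, with 0.815 within the high and -0.469 within the low IMF group. PLIN4, known from both tissues, had r = 0.590 (permutation p = 0.0319, adjusted p = 0.106) and -0.09 without pigs 8 and 10. PLIN3 (r = 0.03) and PLIN5 (r = 0.04) showed little relation, and of the lipases LIPE had the highest r, 0.553 (permutation p = 0.062, adjusted p = 0.155). The differences between these correlations were not tested. Against the marker sum without GPD1, PLIN1 and CIDEC were the only members that passed. That sum was chosen after the values were seen. Against the sum of the full list no member passed (permutation test, adjusted p from 0.533 to 0.981). Which genes passed is therefore no test of the division by rule.

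**Figure D5:**
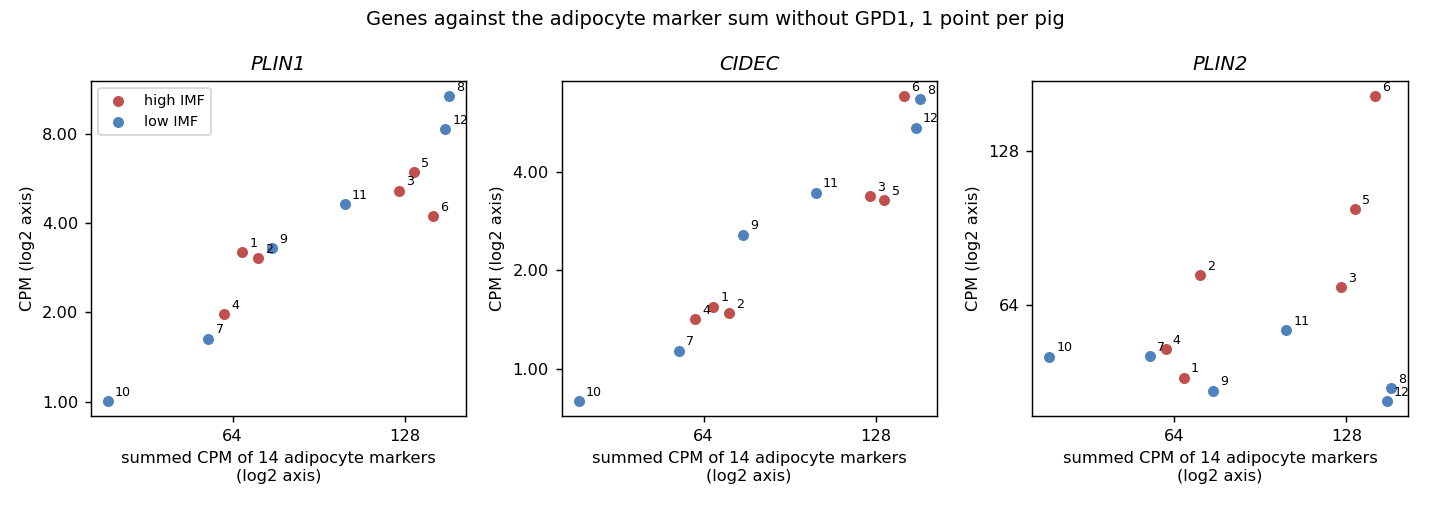
CPM of PLIN1, CIDEC and PLIN2 (y axes, log2 scale) against the summed CPM of 14 adipocyte markers without GPD1 (x axes, log2 scale), 1 point per pig. PLIN1 (r = 0.939) and CIDEC (r = 0.960) rise along the axis in both groups, whereas PLIN2 (r = 0.351) splits into high IMF pigs above and low IMF pigs below at the right.

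The genes whose log2 CPM ran closest to each member over the 12 pigs, among 11827 tested genes with a symbol, are given as a description. PLIN1 was nearest to RETSAT (retinol saturase, r = 0.960), ALDOC (aldolase C, 0.948) and ADCY5 (an adenylyl cyclase, 0.944). CIDEC was nearest to ADIPOQ (0.959), ALDOC (0.949) and DGAT2 (the last step of triglyceride synthesis, 0.944). The partners of PLIN2 were HAUS8 (0.930), MARCHF3 (0.915) and ST8SIA1 (0.912). These names depend on the measure: by Spearman's rho, 2 of the 3 stayed among the nearest for CIDEC and ABHD5, 1 for PLIN1 (RETSAT), PLIN3, PLIN5, PNPLA2 and LIPE, and 0 for PLIN2, PLIN4 and MGLL.

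ABHD5 ran closest to ACSL4, a long-chain acyl-CoA synthetase (0.959), SLC39A6, a zinc transporter (0.957), and IKBKE, a kinase of innate immune signalling (0.949). For PNPLA2 they were SNRNP200 (0.931), CLPTM1 (0.918) and ALDH16A1 (0.916), and for LIPE PTH1R (0.924), GNPTG (0.921) and PTPRU (0.918). PLIN5 was nearest to GIPC2 (0.913), SNORA41 (0.889) and PITPNA (0.875), PLIN4 to ACP2 (0.888), LAYN (0.876) and GLMP (0.838), PLIN3 to UBXN8 (0.884), POLB (0.875) and NOL8 (0.855), and MGLL to KANK2 (0.854), PFKFB3 (0.822) and RALGPS2 (0.784).

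Partners of the droplet and its lipases were described from a list of 20, with 17 named and 15 tested. At an unadjusted p of at most 0.05, 1 was higher in high IMF pigs (beside 5.04% of all genes) and 2 in low IMF pigs (beside 5.38%), none passed over all genes, and the list's median log2FC was -0.09. The gene higher in high IMF pigs was G0S2, the protein that inhibits PNPLA2. It was scarce, with 7 to 95 raw counts per pig. High IMF pigs had 0.256, 0.204, 0.655, 0.307, 0.236 and 0.222 CPM and low IMF pigs 0.138, 0.200, 0.0590, 0.122, 0.144 and 0.0410 CPM. The groups did not overlap, as in 0.659% of all genes, though pig 2 at 0.204 and pig 8 at 0.200 CPM all but met. The log2FC was -1.41 ± 0.43 (SE, unadjusted p = 0.00589, adjusted p = 0.419, edgeR), and the exact permutation p of 0.00216 was the smallest that 6 against 6 allows. It ranged from -1.62 (without pig 8) to -1.06 (without pig 3) with a pig left out and was -1.40 without the pigs of doubtful sex label (unadjusted p = 0.0711).

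The 2 partners higher in low IMF pigs were FITM2, which partitions new triglyceride into droplets (means 7.64 and 9.28 CPM in high and low, log2FC 0.28 ± 0.12, SE, unadjusted p = 0.0359, adjusted p = 0.452, edgeR), and AUP1, a droplet protein of protein quality control (29.2 and 33.4 CPM, 0.19 ± 0.09, unadjusted p = 0.0444, adjusted p = 0.468). Leaving out single pigs changed the count of 2 to between 0 and 2. The most abundant partners were HSPA8, a constitutive chaperone, at a mean of 1712 CPM, and FAR1, a fatty acyl-CoA reductase, at 37.1 CPM, with log2FC of -0.24 and 0.08.

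Lipolysis is switched on by catecholamines through cyclic AMP and protein kinase A. Of 17 genes of this input, the cyclic GMP arm included, 15 were named and 12 tested, 2 were higher in high and 2 in low IMF pigs at an unadjusted p of at most 0.05 (beside 5.04% and 5.38% of all genes), none passed over all genes, and the median log2FC was 0.10. The count higher in low IMF pigs was 4 without pig 2, 3 without pig 5, 10 or 12 and 1 without pig 3, 4, 6 or 8. PRKAR1A, a regulatory subunit of protein kinase A, had means of 108 and 61.4 CPM in high and low IMF pigs (log2FC -0.81 ± 0.28, SE, unadjusted p = 0.0128, adjusted p = 0.427, edgeR). Its mean rested on pigs 3, 4 and 6 (160, 129 and 180 CPM), the other high IMF pigs being at 58.9 to 59.8 CPM beside 53.2 to 68.4 CPM in low IMF pigs, and the exact permutation p was 0.126. PRKG1, the cyclic GMP-dependent kinase, had 102 and 37.3 CPM (-1.46 ± 0.50, unadjusted p = 0.0117, adjusted p = 0.427). Here pigs 5 and 6 (247 and 189 CPM) carried the mean, the other high IMF pigs lay at 27.3 to 65.7 CPM and the low IMF pigs at 23.6 to 57.4 CPM, and the exact permutation p was 0.110. In the other direction were ADCY9, an adenylyl cyclase (70.8 and 96.2 CPM, 0.44 ± 0.17, unadjusted p = 0.0218, adjusted p = 0.441), and PRKACA, the catalytic subunit (82.9 and 95.3 CPM, 0.20 ± 0.09, unadjusted p = 0.0338, adjusted p = 0.447). PRKAR2A was the most abundant of the list at a mean of 178 CPM, with a log2FC of 0.00. The β-adrenergic receptor genes named, ADRB1 and ADRB3, were too low to be tested, with at most 0.0933 and 0.111 CPM in any pig.

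Fatty acids freed from droplets feed PPAR receptors, whose targets were taken as a list of 20, with 19 named and 18 tested. At an unadjusted p of at most 0.05, 0 were higher in high and 1 in low IMF pigs (beside 5.04% and 5.38% of all genes), and the median log2FC was -0.07. Without pig 1, 3, 4 or 12 the count higher in high IMF pigs was 1, and without pig 2 that in low IMF pigs was 2. The 1 was UCP3, a mitochondrial carrier of muscle, with 2.39 to 13.5 CPM in high and 5.22 to 56.2 CPM in low IMF pigs (log2FC 1.40 ± 0.54, SE, unadjusted p = 0.0222, adjusted p = 0.441, edgeR). Pig 12, at 56.2 CPM, and pig 7, at 21.3 CPM, stood above all high IMF pigs, and without pig 12 no target was higher in low IMF pigs at that threshold. ANGPTL4, an inhibitor of lipoprotein lipase, had a log2FC of -0.94 (adjusted p = 0.529), with 27.7 CPM in pig 6 and 13.5 CPM in pig 1 as its highest values, and CPT1A, the liver-type carnitine palmitoyltransferase, one of 0.48 (adjusted p = 0.558). The most abundant targets were PDK4, at a mean of 1617 CPM and a log2FC of 0.49, and ACADM, at 276 CPM and -0.34. Pig 6 thus had the highest value of the 12 for PLIN2, ABHD5, CIDEC and ANGPTL4, which was noticed after the values were seen and concerns 1 animal.

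Markers of other cells that hold droplets or lie between fibres were measured beside these genes. Macrophage markers, 12 named and 11 tested, had 2 higher in high IMF pigs at an unadjusted p of at most 0.05 (beside 5.04% of all genes), ITGAM (log2FC -1.06, adjusted p = 0.422) and AIF1 (-0.46, adjusted p = 0.463), a median log2FC of -0.27, and a sum from 86.8 to 203 CPM in high and from 97.1 to 170 CPM in low IMF pigs. ITGAM was high in pigs 2, 5 and 6 (16.3, 21.4 and 12.4 CPM). The other high IMF pigs lay at 4.97 to 5.51 CPM, beside 4.18 to 6.89 CPM in low IMF pigs. Its exact permutation p was 0.0823. The count of 2 macrophage markers was 1 without pig 1, 5, 6, 8, 9, 10 or 12. Pig 6, highest in PLIN2, was also the highest in the macrophage marker sum. The most abundant macrophage genes, CD163 (30.6 CPM) and MRC1 (21.0 CPM), had log2FC of 0.25 and -0.36. The part of macrophages in the PLIN2 difference was not tested.

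Endothelial markers (8 of 10 named, 7 tested) had 2 higher in low IMF pigs at that threshold (beside 5.38% of all genes), CDH5 (log2FC 0.55, adjusted p = 0.383) and FLT1 (0.56, adjusted p = 0.434), with TIE1 next (0.26, adjusted p = 0.620), and the most abundant was PECAM1 at 60.7 CPM. Fibro-adipogenic markers (8 of 10 named and tested) had 1 higher in high IMF pigs (beside 5.04%), PDGFRA (-0.42, adjusted p = 0.441), while COL3A1 (0.30, adjusted p = 0.609), COL1A1 (0.46, adjusted p = 0.630) and DCN (-0.07, adjusted p = 0.879) did not reach it. The endothelial count was 1 without pig 7, and the fibro-adipogenic count was 0 without pig 8 or 11 and 2 without pig 5. The median log2FC was 0.18 for endothelial and 0.02 for fibro-adipogenic markers. Slow fibre markers, which mark the fibres that hold most droplets, had none of 6 at that threshold and a median of -0.17, with MYL2 (-0.23, adjusted p = 0.835), MYL3 (-0.31, adjusted p = 0.832), TNNC1 (-0.11, adjusted p = 0.951) and ATP2A2 (-0.30, adjusted p = 0.703) as the genes named. Among the skeletal muscle markers none of 6 reached it either, ACTA1 (0.29, adjusted p = 0.602), TNNT3 (0.16, adjusted p = 0.630) and CKM (0.19, adjusted p = 0.679) being nearest, and their median was 0.11. Leaving out single pigs gave at most 1 gene at that threshold in either list, without pig 7 for the slow fibre and without pig 2 for the skeletal muscle markers.

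Without the 6 pigs of doubtful sex label, a setting applied to the lists after seeing the data, 2.19% of 14972 genes were higher in high and 1.86% in low IMF pigs at an unadjusted p of at most 0.05. Over all the lists there were then 2 genes at that threshold, both higher in low IMF pigs: UCP3 (log2FC 2.52 ± 0.80, SE, adjusted p = 0.998, edgeR) and ADIRF, an adipogenesis regulatory factor (0.64 ± 0.26, adjusted p = 0.998). This fit rests on 4 high and 2 low IMF pigs.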

How the data were processed

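Gene counts, as whole numbers and not normalized, were deposited by the authors, 1 column per pig. According to the study's methods and the labels, the authors made stranded libraries of messenger RNA, sequenced paired reads with pairs of libraries sharing a lane, trimmed with Trimmomatic, aligned to Sscrofa11.1 (HISAT2), built known transcripts (StringTie) and counted reads for each Ensembl gene (HTSeq). The annotation release, the strand option, the handling of reads with several alignments, and which pigs shared a lane or a slaughter day are not given in the sources used here. The summed counts exceed the number of reads left after trimming in the study's text, so 1 read may have added to more than 1 count. Each column is a separate animal, so p-values measure the spread between pigs. Libraries held at least 131048805 counts, and scarce genes such as G0S2 still had few.

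Of 25880 genes, 5539 had no count and 14857 had a symbol in the gene name table. Genes kept by filterByExpr (14262) were normalized by TMM and compared with edgeR 4.0.16's quasi-likelihood test (R 4.3.3), group being the only term (10 residual degrees of freedom, common biological coefficient of variation 0.332), with Benjamini-Hochberg adjustment over all of them. CPM were TMM-normalized and log2 CPM used a prior count of 2. Exact two-sided permutation tests used all 924 arrangements of the pigs, and correlations 100000 resamples. Gene positions, exon lengths and upstream sequences were those of RefSeq on Sscrofa11.1, matched by symbol for all 10 genes. The fit was tested on simulated counts, and its power for differences as small as that of PLIN2 is not given here.

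Members and lists were chosen with earlier results of these data known. The genes named were all members, the 3 genes of smallest p and the 2 most abundant of each list, the 3 genes most like each member, the pairs passing adjustment, and PLIN1 with CIDEC and with PLIN5. LEP, FABP4, CFD, RETN, ADRB1 and ADRB3 were named besides for their levels, having been chosen after their values were seen, as were ADIRF, the singling out of G0S2 and the other pairs and pigs. Alternatives were DESeq2 size factors, upper-quartile scaling, other count filters, DESeq2 1.42.0's Wald test (adjusted p given as NA kept as NA), limma-voom 3.58.1, a robust fit, labelled sex or age as a term, the pigs of doubtful sex label left out, and each pig left out. Comparisons of the authors' own were not used.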

Additional observations from a re-analysis of the deposited data

Results flagged for a closer look

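For each gene and each summed list, in each group of 6 pigs, the highest or lowest pig was compared with its neighbours by Dixon's test at the 95% level. Of 38 groups of values tested 5 stood out. Chance gives about 1 in 20 for independent normal values. These groups of values share the same pigs and are CPM without logarithm, so that rate need not hold here. In the high IMF group pig 6 stood far above the others for ABHD5, at 82.9 CPM against 35.0 CPM in the next pig, and for CIDEC, at 6.83 against 3.38 CPM. In the low IMF group pig 12 was lowest in the summed genes of adrenergic and cyclic AMP input, at 462 CPM against 524 CPM in the next. Pig 7 of that group was highest in the summed macrophage markers, at 170 against 121 CPM, and in the summed skeletal muscle markers, at 83998 against 67390 CPM. PLIN2 in pig 6, at 163 CPM, did not stand out by this measure.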

How the results depend on the processing

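No member was called under any alternative. Over all genes, DESeq2's Wald test called 64 genes (those with at least 1 count) and 57 (those kept by filterByExpr), and leaving out single pigs gave 0 to 1, with 1 called without pig 5 and 1 without pig 10. PLIN2, PLIN3, PLIN4, PLIN5, PNPLA2, ABHD5 and LIPE kept their direction throughout. So did G0S2 wherever it was tested, which leaves out the filter of at least 10 counts in every pig (it had 9 in pig 9 and 7 in pig 12). With labelled age as a term, the log2FC was -0.023 for PLIN1, -0.13 for CIDEC and -0.0053 for MGLL, and MGLL was -0.093 without the pigs of doubtful sex label. With single pigs left out, log2FC ran from -0.040 to 0.55 for PLIN1, from -0.14 to 0.60 for CIDEC and from -0.069 to 0.095 for MGLL, and r of PLIN1 with PLIN5 from -0.393 to 0.0173 (0.0440 without the 2 pigs farthest from the median). Against the adipocyte marker sum without GPD1, r was 0.939 for PLIN1, 0.960 for CIDEC, 0.0596 for PNPLA2, 0.331 for ABHD5 and 0.553 for LIPE, all positive where the sum with GPD1 gave negative values. GPD1's share of the sum is the one thing that differs between those settings. The causes of the other changes were not tested. Each group has 6 pigs, and with the pigs of doubtful sex label left out 6 remain in all. G0S2, with 7 to 95 raw counts per pig, is also limited by depth. A coding length from protein sequences was not run, and the longest annotated coding sequence took its place.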
